A study of Mus musculus with 11 samples.

Results

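The ISG15 conjugation pathway is described here in mouse mammary tumors through the transcripts of its 5 core genes: the modifier *Isg15*, the activating enzyme *Uba7*, the conjugating enzyme *Ube2l6*, the ligase *Herc6* and the protease *Usp18*. The genes were chosen by symbol, and each of the 5 names matched a single gene among the 26283 genes of the deposited count and CPM tables. CPM scales the count of a gene to the total count of its tumor.

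ISG15 is a ubiquitin-like protein that interferons induce and that is joined to other proteins by an enzyme cascade of its own. UBA7 activates it, UBE2L6 carries it, and in mice HERC6 is the main ligase that attaches it to substrates, many of them newly made proteins or antiviral proteins. USP18 removes ISG15 from its substrates and also binds the receptor chain IFNAR2, where it restrains type I interferon signalling. Free ISG15 can leave the cell and act on lymphocytes through the integrin LFA-1, and tumors of the breast often carry raised ISG15.

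The study asks how loss of the poly(C)-binding protein PCBP1 alters nucleic acid sensing by cGAS and the growth of breast tumors. RNA came from bulk mammary tumors of C57BL/6 mice that were 18 weeks old, and all animals carried the MMTV-PyMT oncogene together with MMTV-Cre. In 6 tumors both *Pcbp1* alleles were floxed (fl/fl; PyMT *Pcbp1*–/–), and in 5 tumors they were not floxed (wt/wt; PyMT *Pcbp1*+/+). MMTV-Cre acts in the mammary epithelium, so the other cells of a knockout tumor keep *Pcbp1*, and each tumor was measured whole. Poly(A) RNA of all 11 tumors was sequenced, and the sample labels place all tumors in 1 batch. The estimated counts of a tumor summed to between 11239931 and 14092192 in the knockout group (median 13135786) and to between 10543189 and 11411776 in the wild-type group (median 10975700). Depth was thus somewhat higher in knockout tumors, and its part in the results was not tested. A count of 0 allows up to 3 counts, or 0.213 to 0.285 CPM depending on the tumor, which covers counting error only.

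*Pcbp1* itself (ENSMUSG00000051695.6, chromosome 6, 86524492 to 86526321 on GRCm38) stood at 268, 271, 225, 220 and 259 CPM in wild-type replicates 1 to 5. Its knockout values were 19.5, 19.2, 28.1, 22.3, 15.4 and 33.6 CPM in replicates 1 to 6. Every knockout tumor lay far below every wild-type tumor, and none was at 0. The log2 fold change was -3.43 ± 0.19 (estimate ± SE in edgeR, with an adjusted p = 4.72e-06). The adjusted p is Benjamini-Hochberg corrected over the 19232 genes that passed the filter on low counts, and fold changes are knockout over wild type throughout.

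All 5 pathway genes passed the filter and all had negative log2 fold changes. In edgeR 4 of the 5 were lower in knockout tumors at an adjusted p under 0.05, beside 319 of all 19232 genes (1.66%), and 0 of the 5 were higher, beside 117 genes (0.608%). The count of 4 dropped to 2 without any single tumor among knockout replicates 1, 3, 4 and 5 and wild-type replicates 1, 3 and 4, and in limma on log2(CPM + 1) or log2(CPM + 0.1). The median log2 fold change of all genes tested was -0.00012. In 1 of the 5 every knockout tumor was below every wild-type tumor, which held for 389 of all genes tested (2.02%). The study itself displays *Isg15* among the genes lowered in these same tumors, so the fall of that gene is not independent of what is already published. In bulk tumors fewer cells of a type and less RNA per cell cannot be told apart, and this holds for each difference given here.

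*Isg15* encodes the modifier itself (ENSMUSG00000035692.6, chromosome 4, 156199424 to 156200818, minus strand, GRCm38). In wild-type replicates 1 to 5 it reached 31.5, 38.2, 38.8, 28.4 and 10.2 CPM, and in the 6 knockout tumors it ranged from 2.25 to 7.03 CPM around a median of 4.58. The groups did not overlap, although wild-type replicate 5 came close to the highest knockout tumor, and the lowest value of all was in knockout replicate 2. The mean was 4.80 ± 1.80 CPM (SD, n = 6) in knockout and 29.4 ± 11.6 CPM (SD, n = 5) in wild-type tumors, so that 16.3% of the wild-type level remained. The log2 fold change of *Isg15* was -2.62 ± 0.34 (estimate ± SE in edgeR, with an adjusted p = 0.00343), rank 19 from the lowest of all 19232 genes.

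*Uba7* encodes the E1 enzyme that activates ISG15 (ENSMUSG00000032596.14, chromosome 9, 107975505 to 107984060, plus strand). Its wild-type values in replicates 1 to 5 were 45.2, 47.8, 61.9, 59.9 and 28.7 CPM, while knockout tumors were tightly grouped from 25.7 to 30.9 CPM with a median of 28.5. Wild-type replicate 5 lay in the middle of the knockout tumors, 3 of which were above it, and the other 4 wild-type tumors were above all knockout tumors. The means were 28.6 ± 2.04 CPM (SD, n = 6) in knockout and 48.7 ± 13.3 CPM (SD, n = 5) in wild-type tumors. By the edgeR fold change, knockout tumors held 58.6% of the wild-type level. *Uba7* had a log2 fold change of -0.77 ± 0.16 (estimate ± SE in edgeR, with an adjusted p = 0.0319). That call was not firm, because leaving out any single tumor other than wild-type replicates 2 and 5 put the adjusted p above 0.05, at most at 0.0918, and limma on log2(CPM + 1) gave 0.0530. A gene model without a common name overlaps the end of *Uba7* on the same strand, and it held at most 19 counts in any tumor against 312 to 706 for *Uba7*.

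*Ube2l6* encodes the E2 enzyme that takes ISG15 over from UBA7 (ENSMUSG00000027078.14, chromosome 2, 84798828 to 84810335, plus strand). Wild-type replicates 1 to 5 gave 9.59, 5.69, 11.5, 7.84 and 4.02 CPM, and knockout tumors gave 3.80 to 5.88 CPM with a median of 5.47. Here wild-type replicates 2 and 5 both fell among the knockout tumors, and 5 of the 6 knockout tumors exceeded replicate 5. The means were 5.13 ± 0.85 CPM (SD, n = 6) in knockout and 7.72 ± 2.98 CPM (SD, n = 5) in wild-type tumors. With a log2 fold change of -0.59 ± 0.24 (estimate ± SE in edgeR, with an adjusted p = 0.215), *Ube2l6* was the member that missed the threshold, at counts of 45 to 131 per tumor. It passed in limma-voom with quality weights (log2 fold change of -0.84, adjusted p = 0.0393), while over all other alternatives the adjusted p ran from 0.0924 to 0.443.

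*Herc6*, the ligase gene (ENSMUSG00000029798.11, chromosome 6, 57581000 to 57664632, plus strand), stood at 35.4, 20.8, 42.8, 36.4 and 12.1 CPM in wild-type replicates 1 to 5. In knockout tumors it ranged from 8.63 to 12.6 CPM around a median of 9.78. A single knockout tumor, replicate 6, exceeded wild-type replicate 5, and the 4 remaining wild-type tumors were clear of the knockout group. Knockout tumors held 34.4% of the wild-type level, with means of 10.1 ± 1.56 CPM (SD, n = 6) and 29.5 ± 12.6 CPM (SD, n = 5). The log2 fold change of *Herc6* was -1.54 ± 0.27 (estimate ± SE in edgeR, with an adjusted p = 0.0115).

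*Usp18*, the gene of the protease that reverses the modification (ENSMUSG00000030107.10, chromosome 6, 121245906 to 121270917, plus strand), had 11.9, 8.91, 14.0, 11.2 and 2.68 CPM in wild-type replicates 1 to 5. Its knockout tumors ranged from 1.80 to 4.33 CPM with a median of 3.21. Wild-type replicate 5 was lower than 5 of the 6 knockout tumors, whereas the other 4 wild-type tumors were all more than the highest knockout tumor. The means were 3.13 ± 0.87 CPM (SD, n = 6) in knockout and 9.74 ± 4.35 CPM (SD, n = 5) in wild-type tumors. By the edgeR fold change, knockout tumors held 32.4% of the wild-type level. *Usp18* had a log2 fold change of -1.63 ± 0.34 (estimate ± SE in edgeR, with an adjusted p = 0.0309) at counts of 24 to 160 per tumor. Without knockout replicate 1, 3, 4 or 5, or without wild-type replicate 1, 3 or 4, its adjusted p exceeded 0.05 and reached at most 0.0810, and limma on log2(CPM + 1) gave 0.0671.

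**Figure D1:**
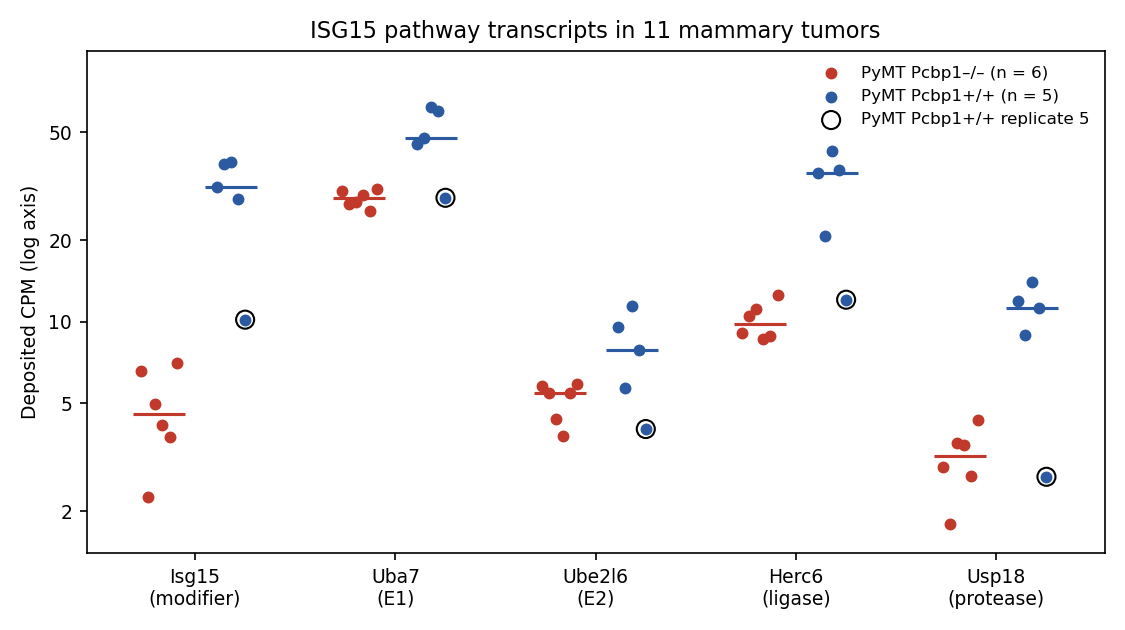
Deposited CPM (log axis) of the 5 pathway genes in each tumor, with 1 point per tumor and a bar at the group median. Points of knockout tumors are red, those of wild-type tumors are blue, and a ring marks wild-type replicate 5, which was the lowest wild-type tumor for all 5 genes.

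Wild-type replicate 5 was the lowest wild-type tumor for all 5 pathway genes, while its *Pcbp1* level of 259 CPM was in the middle of its group. Left out, a choice made after seeing the data, 4 of the 5 members (*Isg15*, *Uba7*, *Herc6* and *Usp18*) had every knockout tumor below every wild-type tumor, beside 697 of all genes tested (3.62%). Without this tumor 4 of the 5 were lower at an adjusted p under 0.05 in edgeR, and *Ube2l6* had a log2 fold change of -0.74. The same tumor had the lowest *Ptprc* (leukocyte) level of its group, at 19.1 CPM against 23.2 to 61.8 CPM, and a summed skeletal muscle marker level of 23.8 CPM against at most 2.01 CPM in the other wild-type tumors. It was also the lowest wild-type tumor for the summed markers of basal epithelium (37.1 CPM against 118.1 to 489.6 CPM), dendritic cells, T cells, NK cells and endothelium. The part of any of these in the low pathway values was not tested.

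Levels of different genes were compared per length, as CPM per kilobase of the canonical transcript. In wild-type tumors *Isg15* was highest at 37.6 ± 14.9 CPM per kilobase (SD, n = 5), followed by *Uba7* at 15.2 ± 4.17. *Usp18* at 5.47 ± 2.44, *Herc6* at 5.08 ± 2.18 and *Ube2l6* at 4.93 ± 1.90 came next and did not differ beyond their spread. In knockout tumors *Uba7* led at 8.92 ± 0.64 CPM per kilobase (SD, n = 6), ahead of *Isg15* at 6.13 ± 2.30 and *Ube2l6* at 3.27 ± 0.54, while *Usp18* at 1.76 ± 0.49 and *Herc6* at 1.75 ± 0.27 were alike within their spread. *Isg15* thus had the highest level in 5 of 5 wild-type tumors and *Uba7* in 6 of 6 knockout tumors. The knockout order depends on the length used: with all exons of a gene merged, a setting added after seeing the data, *Isg15* was highest in 5 of 6 knockout tumors and in 5 of 5 wild-type tumors.

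The fall was unequal along the cascade. Within each tumor the level of each enzyme was divided by that of *Isg15*, so that library size drops out, and the log2 ratio was compared between groups over 4 ratios that share *Isg15* and are therefore not independent. The log2 ratio of *Uba7* to *Isg15* was 2.64 ± 0.52 (SD, n = 6) in knockout and 0.81 ± 0.47 (SD, n = 5) in wild-type tumors, a difference of 1.83 (two-sided exact permutation p = 0.00217, the smallest p these groups allow). For *Ube2l6* the log2 ratio rose from -1.87 ± 0.52 to 0.17 ± 0.60, a difference of 2.04 with the same exact permutation p of 0.00217. *Herc6* and *Usp18* followed *Isg15* more closely, but they too fell less than it did. The log2 ratio of *Herc6* rose from 0.0054 ± 0.50 to 1.14 ± 0.57, a difference of 1.14 (exact permutation p = 0.00433). That of *Usp18* rose from -1.63 ± 0.33 to -0.55 ± 0.33, a difference of 1.08 (exact permutation p = 0.00433). For all 4 ratios every knockout tumor was above every wild-type tumor, wild-type replicate 5 included. Knockout tumors thus held more enzyme transcript per *Isg15* transcript than wild-type tumors did. *Isg15* itself did not overlap between the groups, so a gene that did not change would also have a higher ratio in knockout tumors. The share of all genes whose ratio to *Isg15* separates the groups was not computed, and the separation is therefore not particular to the enzymes.

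The wider ISG15 system was read from lists of 43 further genes, all of which were tested. In edgeR 9 of the 43 passed an adjusted p under 0.05 as lower and 0 as higher, beside 1.66% lower and 0.608% higher of all genes tested (at an unadjusted p under 0.05, 11 lower and 3 higher). DESeq2 and limma-voom each called 11 lower and 1 higher, beside 730 lower and 486 higher of all genes in DESeq2 and 1190 and 968 in limma-voom, and limma on log2(CPM + 1) called 8 lower and 1 higher, beside 228 and 92. The higher gene was *Pcna*, a reported ISG15 substrate named after its values were seen (edgeR log2 fold change of 0.52 at an adjusted p = 0.0584). The median log2 fold change of the 43 genes was -0.017, with 24 negative, beside 9619 negative of the 19232 genes tested.

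Among ligases and ligase helpers, *Trim25*, a ligase and target of ISG15, was lower, with an edgeR log2 fold change of -0.59 at an adjusted p = 0.00651, while *Arih1* was at 0.067. Of 25 reported substrates 5 were lower, beside 1.66% of all genes. They were the antiviral effectors *Ifit1* (log2 fold change of -2.80), *Mx1* (-2.28) and *Eif2ak2* (-0.82) and the RNA sensors *Ddx58* (-0.98) and *Ifih1* (-0.78). *Ifit1* ranged from 4.95 to 15.6 CPM in knockout and from 21.6 to 93.8 CPM in wild-type tumors, and *Mx1* from 1.05 to 2.94 CPM and from 5.18 to 18.5 CPM. For *Ifit1*, *Mx1*, *Eif2ak2*, *Ddx58* and *Trim25* the groups did not overlap. The call of *Ifih1* was lost without knockout replicate 1, 3, 4 or 5 or wild-type replicate 1, 3 or 4, with an adjusted p of at most 0.0895, and with limma on log2(CPM + 1) (0.0547) and log2(CPM + 0.1) (0.0558).

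Upstream interferon signalling had 3 of 10 genes lower, beside the same 1.66%: *Irf7* (edgeR log2 fold change of -2.89 at an adjusted p = 0.00194), *Stat2* (-1.42, adjusted p = 0.0112) and *Irf9* (-0.85, adjusted p = 0.0254). *Irf7*, a transcription factor for interferon genes, ranged from 11.4 to 22.3 CPM in knockout and from 40.0 to 157.6 CPM in wild-type tumors. *Stat2* is also the partner that brings USP18 to the receptor. *Irf9* missed the threshold without knockout replicate 3, 4 or 5 or wild-type replicate 1, 3 or 4, with an adjusted p of at most 0.0689. *Ifit1* and *Irf7* are also reported as lowered by the study and are not independent of it.

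The proteases and the integrin chains that handle ISG15 did not pass, and of the USP18 partners only *Stat2* did. Of the 6 proteases with reported activity on ISG15, 0 were called by edgeR, DESeq2 or limma (at an unadjusted p under 0.05, 0 lower and 1 higher), with a median log2 fold change of 0.019 and *Usp13* largest in size at 0.38. The value of *Usp13* was loose, moving to 0.16 without wild-type replicate 4, to 1.04 without wild-type replicate 1 and to 1.01 in limma-voom. Of the 3 partners of USP18, *Stat2* alone was called in edgeR, and *Skp2*, which marks USP18 for degradation, had a log2 fold change of 0.30. Neither chain of the integrin that binds extracellular ISG15 was called by edgeR, DESeq2 or limma, and 0 of the 2 had an unadjusted p under 0.05. The larger change there was that of *Itgal*, with a log2 fold change of -0.32 that shrank to -0.057 without wild-type replicate 3.

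**Figure D2:**
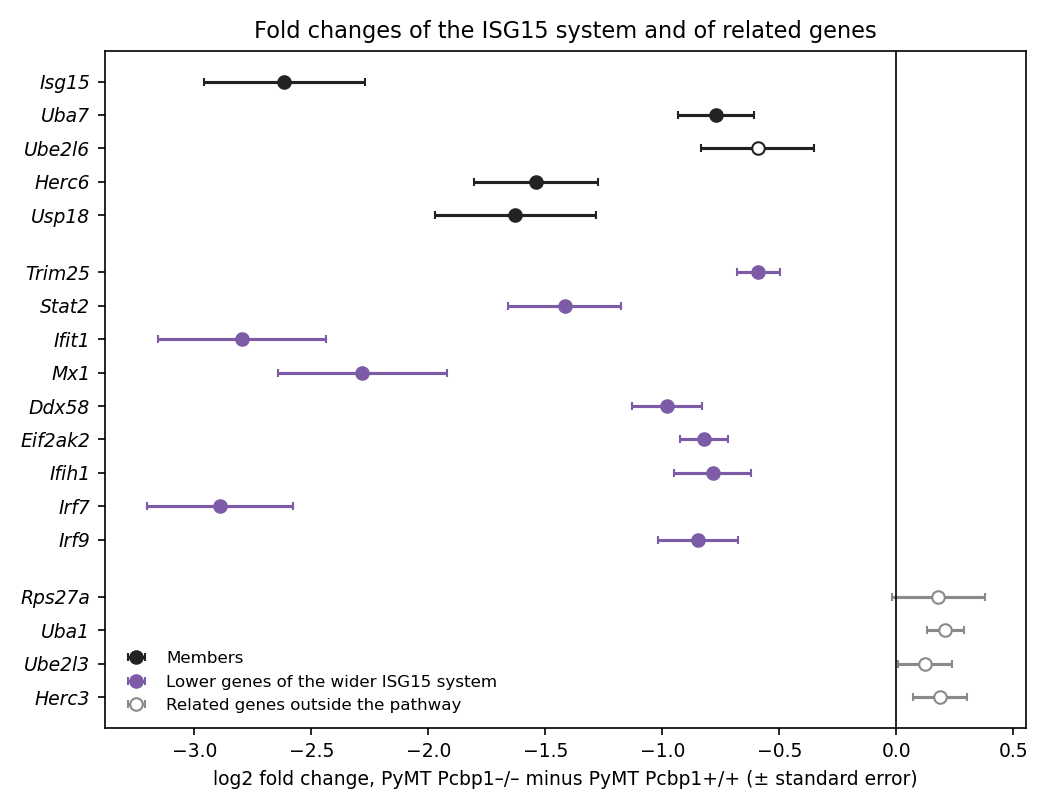
Log2 fold change (knockout over wild type, from edgeR) with its standard error for the 5 pathway genes, for the 9 lower genes of the wider ISG15 system and for 4 related genes outside the pathway. Filled points have an adjusted p under 0.05 and open points do not. The 4 related genes drawn are slightly above 0, while the pathway genes run from -2.62 to -0.59.

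Related genes of the ubiquitin system were counted in the same fit, where 1.66% of all genes were called lower and 0.608% higher. Of 9 other E1 enzymes 0 were called by edgeR (1 lower and 3 higher at an unadjusted p under 0.05), while DESeq2 and limma-voom each called 1 higher, *Sae1*, named after its values were seen, and edgeR without wild-type replicate 2 also called 1 gene. Their median log2 fold change was 0.092, *Uba1*, the E1 of ubiquitin, was at 0.21, and *Nae1* was largest in size at -0.41 (adjusted p = 0.111 from edgeR). These 9 genes thus had estimates on both sides of 0, without a call in edgeR. Of 32 other E2 enzymes tested 0 were called by edgeR (0 lower and 4 higher at an unadjusted p under 0.05), with a median of 0.095. *Ube2l3*, the closest relative of *Ube2l6*, had a log2 fold change of 0.12. *Ube2c* had the largest change of the E2 enzymes at 0.66 (adjusted p = 0.104 from edgeR), and DESeq2 and limma-voom called it higher.

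Of 4 other HERC genes tested 0 were called by edgeR, DESeq2 or limma and 0 had an unadjusted p under 0.05. Their median log2 fold change was -0.084 and 3 of the 4 were negative. *Herc3* was the largest of them in size at 0.19, and *Herc5* was not analysed here. Among 44 other USP genes tested, with a median log2 fold change of -0.012, edgeR called *Usp54* lower (-0.30, adjusted p = 0.0461) and *Usp1* higher (0.45, adjusted p = 0.0266). DESeq2 called 1 lower and 2 higher, adding *Usp45*, limma-voom called 2 lower and 2 higher, adding *Usp45* and *Usp48*, and limma on log2(CPM + 1) called 0 lower and 1 higher. *Usp45* and *Usp48* are named after their values were seen. With 1 gene of 44 in each direction in edgeR, the USP calls are near the shares over all genes, and limma-voom called 1190 lower and 968 higher genes in all. Neither call was firm: *Usp54* kept it only without wild-type replicate 2 or 3 among the fits that left out a tumor (adjusted p at most 0.104), and *Usp1* lost it without knockout replicate 3, 4 or 5 or wild-type replicate 1, 3 or 4 (at most 0.0728). Of 17 other ubiquitin-like modifiers tested 0 were called by edgeR (0 lower and 1 higher at an unadjusted p under 0.05) or DESeq2, and limma-voom called *Sumo2* higher (0.37, adjusted p = 0.0430). Their median log2 fold change was 0.13, and the ubiquitin gene *Rps27a* was at 0.18. *Uba1*, *Ube2l3*, *Herc3* and *Rps27a* kept a positive log2 fold change in all alternatives run, with no call.

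The variation of *Isg15* between tumors of the same genotype was compared with that of the other 19231 genes tested. The measure was the Pearson r of deviations from the genotype mean of log2(CPM + 0.5) over 11 tumors. For this step CPM was computed after TMM normalization and is not the deposited CPM. These r values describe a likeness and carry no test, and all genes of a tumor share its library size and cell mixture. The 5 genes outside the pathway most like *Isg15* were *Ifit1* (r of 0.987), *Irf9* (0.975), *Oasl2* (0.962), *Trim12a* (0.958) and *Parp12* (0.945). Leaving out knockout replicate 2 and wild-type replicate 5, the tumors farthest from the median *Isg15* deviation, r over the other 9 tumors was 0.941, 0.926, 0.870, 0.952 and 0.719 in the same order. The pathway genes were less close to *Isg15* than these: r was 0.884 for *Usp18* (rank 31), 0.77 for *Uba7* (rank 222), 0.635 for *Herc6* (rank 830) and 0.577 for *Ube2l6* (rank 1244). Over the 9 tumors it fell to 0.475, 0.519, 0.327 and 0.430. Leaving out the extremes of *Isg15* narrows its range, which can by itself lower r.

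The chromosomal surroundings of the 5 genes were read within 100 kb on either side. Of 41 neighbouring genes 29 were tested, and 4 were lower and 1 was higher at an adjusted p under 0.05 in edgeR, beside 1.66% and 0.608% of all genes tested. All 4 lower neighbours flank *Isg15* on chromosome 4, where 7 of 8 neighbours were tested. *AW011738* begins 2486 bases from *Isg15* on the opposite strand (156203304 to 156205151, GRCm38). It stood at 30.9, 28.6, 32.2, 25.0 and 10.45 CPM in wild-type replicates 1 to 5 and at 6.65 to 11.4 CPM in knockout tumors, with a median of 7.90. As for the pathway genes, wild-type replicate 5 was low, and 4 of the 6 knockout tumors were below it. Its log2 fold change was -1.55 ± 0.25 (estimate ± SE in edgeR, with an adjusted p = 0.00886).

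Farther out on the same side, *Perm1* (15050 bases away) changed by -1.09 ± 0.17 on the log2 scale in edgeR, at an adjusted p = 0.00618. *Plekhn1* (20638 bases away) changed by -1.03 ± 0.13 (edgeR adjusted p = 0.00320). For both, every knockout tumor was below every wild-type tumor, at 10.3 to 14.0 CPM against 16.9 to 33.4 CPM for *Perm1* and 30.0 to 38.0 CPM against 52.6 to 84.8 CPM for *Plekhn1*. On the other side *Agrn* (1936 bases away) ranged from 77.9 to 201.5 CPM in knockout and from 168.3 to 301.3 CPM in wild-type tumors, with knockout replicate 1 inside the wild-type range. *Agrn* changed by -0.97 ± 0.22 on the log2 scale in edgeR, at an adjusted p = 0.0399, and this call was lost in 8 of 11 fits that left out a tumor (all but those without knockout replicates 1 and 2 and wild-type replicate 5), with an adjusted p of at most 0.0918, and with normalization by library size alone (0.0537). The next genes tested were near 0 beyond *Plekhn1*, where *Noc2l* was at 0.058 and *Samd11* at 0.035, while the next gene tested beyond *Agrn*, a gene model without a common name, was at -0.30 without a call.

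Around the other members no neighbour was lower at an adjusted p under 0.05 in edgeR. The nearest genes tested were *Traip* and *Fam212a* beside *Uba7*, *Serping1* and *Timm10* beside *Ube2l6*, *Ppm1k* and a gene model without a common name beside *Herc6*, and *Tuba8* beside *Usp18*, and none of them was called in any alternative run. Among these nearest genes *Tuba8* had the largest change in size, with a log2 fold change of -0.49 that shrank to -0.0011 without wild-type replicate 1. Farther out, *Ypel4*, 60173 bases from *Ube2l6* and named after its values were seen, was at -1.13 without a call (adjusted p = 0.106 from edgeR). *Lancl2*, 37908 bases from *Herc6*, was higher (edgeR log2 fold change of 0.53 at an adjusted p = 0.0322). Its call was lost in 7 of 11 fits that left out a tumor (without knockout replicate 3, 4, 5 or 6 or wild-type replicate 1, 3 or 4), with an adjusted p of at most 0.0851.

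**Figure D3:**
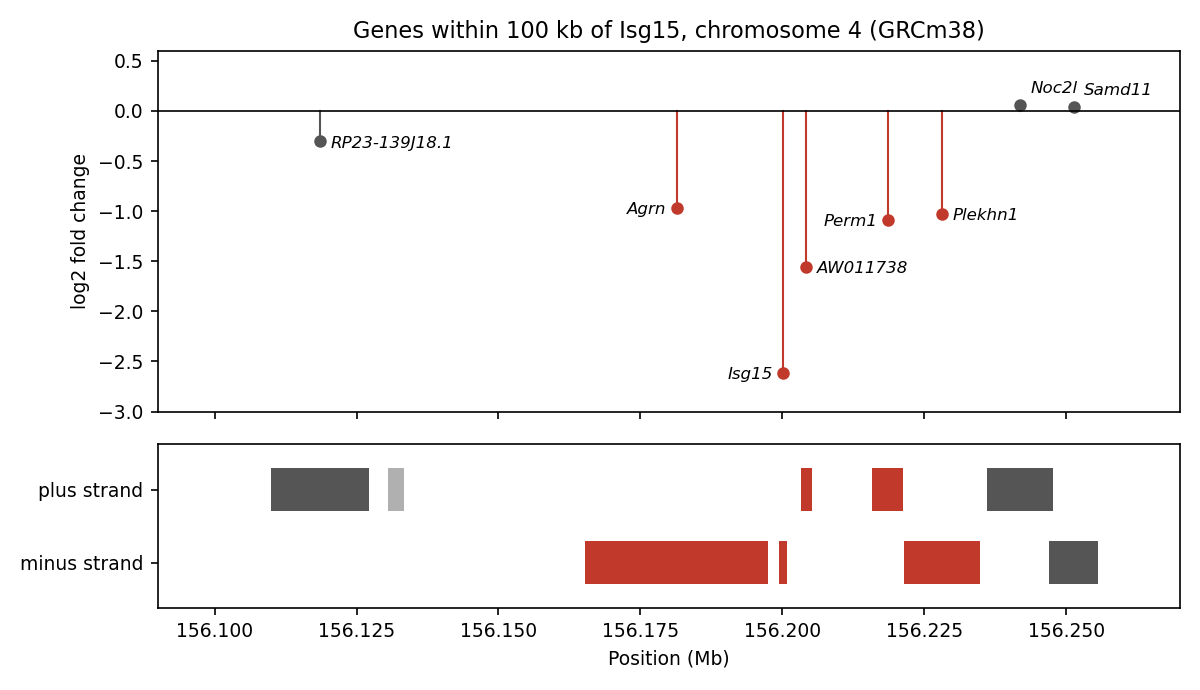
Log2 fold change (knockout over wild type, upper panel) and position by strand (lower panel, in Mb on GRCm38) of the genes within 100 kb of *Isg15* on chromosome 4. Red marks an adjusted p under 0.05 in edgeR, dark grey a gene tested without a call, and light grey a gene that was not tested. The lower genes run from *Agrn* to *Plekhn1*.

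Promoter sequences from RefSeq (GRCm38.p6) matched 4 of the 5 members, all but *Usp18*. The 250 bases before the gene start given by RefSeq were searched on both strands for the core of the interferon-stimulated response element, GAAANNGAAA, which interferon-activated transcription factor complexes bind, and for the gamma-activated site, TTCNNNGAA. That start is the one in the deposited tables for *Isg15* and *Ube2l6*, while it lies inside the deposited gene for *Uba7* and slightly before it for *Herc6*. The first occurred in 2.98% and the second in 7.02% of all 32851 promoters in the table. *Isg15* had 3 matches to the first motif, which overlap each other in a run from position -78 to position -57 relative to the gene start. *Uba7*, *Ube2l6* and *Herc6* had 0 matches to it, and the second motif had 0 matches in all 4 promoters. The 120 bases before the start are shown for the modifier, which fell most, and for the ligase and the E2 enzyme as a contrast, with matches to the first motif in capitals. The windows are chr4:156200819-156200938 (minus strand) for *Isg15*, chr6:57580872-57580991 (plus strand) for *Herc6* and chr2:84798708-84798827 (plus strand) for *Ube2l6*. A match describes letters in the window and not bound protein, and a window without matches shows nothing about the factor.
Isg15: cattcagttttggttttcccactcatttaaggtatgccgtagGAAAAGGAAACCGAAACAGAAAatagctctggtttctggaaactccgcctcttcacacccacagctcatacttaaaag
Herc6: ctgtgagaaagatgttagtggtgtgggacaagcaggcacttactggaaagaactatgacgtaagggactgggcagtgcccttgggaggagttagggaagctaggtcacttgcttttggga
Ube2l6: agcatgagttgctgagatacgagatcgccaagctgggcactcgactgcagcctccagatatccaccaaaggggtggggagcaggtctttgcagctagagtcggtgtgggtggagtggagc

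The cell make-up of the tumors was read from marker lists, with the most abundant gene of a list taken over all 11 tumors. The luminal markers *Epcam*, *Krt8*, *Krt18*, *Krt19*, *Elf5* and *Cdh1* were found in every tumor, so the labelled tissue carries its epithelial markers, and they summed to 942.8 to 1594 CPM in knockout and 1160 to 1655 CPM in wild-type tumors, with *Cdh1* the most abundant at 246.7 to 419.9 CPM. The basal markers summed to 58.5 to 232.5 CPM in knockout and 37.1 to 489.6 CPM in wild-type tumors, with *Acta2* the most abundant over all tumors, although *Krt5* had the higher mean in knockout tumors and *Krt14* in wild-type tumors.

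*Ptprc*, which marks all leukocytes, ranged from 22.5 to 44.9 CPM in knockout and from 19.1 to 61.8 CPM in wild-type tumors. Dendritic cell markers (4 genes, *Itgax* the most abundant) summed to 4.54 to 6.58 CPM and 5.09 to 12.9 CPM. Both dendritic cell genes tested were lower without a call in edgeR: *Clec9a* changed by -1.36 on the log2 scale (adjusted p = 0.105 from edgeR, called by limma-voom) and *Itgax* by -0.38, each with 4 of 5 wild-type tumors above the highest knockout tumor. Plasmacytoid dendritic cell markers (2 genes, *Ccr9* the most abundant) summed to 5.77 to 13.8 CPM and 5.14 to 15.1 CPM.

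Markers of T cells (6 genes, *Cd8a* the most abundant) summed to 2.85 to 7.38 CPM in knockout and 2.77 to 8.02 CPM in wild-type tumors, and *Cd3d* was at 0 in some tumors. NK cell markers (3 genes, *Klrb1c* the most abundant) reached at most 3.25 CPM and 3.01 CPM, with *Ncr1* at 0 in some tumors. Neutrophil markers (3 genes, *Csf3r* the most abundant) reached at most 3.75 CPM and 6.92 CPM, with *S100a9* at 0 in some tumors. B cell markers were not analysed here. The summed levels of these immune lists overlapped between the groups.

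Endothelial markers (3 genes, *Cdh5* the most abundant) summed to 32.7 to 70.7 CPM in knockout and 39.1 to 70.8 CPM in wild-type tumors, and fibroblast markers (4 genes, *Col1a1* the most abundant) to 266.7 to 568.0 CPM and 246.2 to 498.7 CPM. Adipocyte markers (3 genes, *Fabp4* the most abundant) summed to 0.781 to 21.96 CPM and 2.65 to 44.6 CPM, with *Adipoq* at 0 in some tumors. Skeletal muscle markers (3 genes, *Acta1* the most abundant) summed to 1.12 to 19.5 CPM and 0.474 to 23.8 CPM, with *Ckm* and *Myh4* at 0 in some tumors. The part of any of these cell types in the fall of the ISG15 pathway was not tested.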

How the data were processed

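Poly(A) RNA of 11 mouse mammary tumors was sequenced, and per the submitters' processing notes reads were checked with FastQC, aligned to GRCm38 with Bowtie2 and quantified in Partek. The deposited count table holds estimated counts per gene, not normalised by the authors, of which 17.9 to 19.6% per tumor are not whole numbers. The deposited CPM table was made by the authors from the same counts, each divided by its column sum and scaled. The counting method and its strand setting are not given in the sources used here.

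Tumors were grouped by genotype (6 knockout, 5 wild type; 1 batch per the labels). Counts were rounded and tested with edgeR 4.0.16 in R 4.3.3 (TMM normalization, filterByExpr defaults, quasi-likelihood F test), with Benjamini-Hochberg correction over the 19232 genes tested and a threshold of 0.05. The code was tested on simulated data. Alternatives were DESeq2 1.42.0, limma 3.58.1 (voom with quality weights, and log2(CPM + 1) or log2(CPM + 0.1)), upper-quartile factors or library size alone, no filter or a CPM filter, protein-coding genes only, a replicate block, and leaving out each tumor. Ratios to *Isg15* used log2(CPM + 0.1) and a two-sided exact permutation test of the difference in group means, with unadjusted p-values. Python 3.11.15 was used for the remaining steps.

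The members and the gene lists were chosen with earlier results of these data known. Genes named are the members, *Pcbp1*, the called genes of the lists with the largest change that missed the threshold and the nearest relatives of members, the 5 genes most like *Isg15*, and called or nearest neighbours within 100 kb. Genes named outside this rule are marked in the text.

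Coordinates are those of the deposited tables, with the stop position taken as 1 past the last base. Lengths are those of the canonical transcript in GENCODE, matched by gene identifier, and promoter sequences are from RefSeq. Some items of the lists are not reported here.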

Additional observations from a re-analysis of the deposited data

Results flagged for a closer look

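Within-group values were examined for a lowest or highest tumor set far apart from the rest of its group, in 124 groups. This found 9 such values, where chance alone gives about 1 in 20 groups, or 6.2. No explanation was tested for any of them.

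Wild-type replicate 5 stood apart on the low side for 3 genes that resembled *Isg15*, which was itself lowest there within its group. These genes were picked for following *Isg15*, so their low values in this tumor are not independent of that choice, nor is the comparison of 9 with 6.2. *Ifit1* was at 21.6 CPM there (nearest tumor of its group 74.99 CPM), *Irf9* at 39.5 CPM (nearest 73.6 CPM) and *Parp12* at 19.0 CPM (nearest 38.0 CPM). The same tumor was high for the summed skeletal muscle markers, at 23.8 CPM (nearest 2.01 CPM).

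Knockout replicate 1 was high for *Agrn*, the neighbour of *Isg15*, at 201.5 CPM (nearest 118.6 CPM), and low for *Timm10*, a neighbour of *Ube2l6*, at 2.48 CPM (nearest 3.82 CPM). Knockout replicate 2 was low for the summed basal epithelial markers, at 58.5 CPM (nearest 182.3 CPM). Wild-type replicate 3 was high for the summed adipocyte markers, at 44.6 CPM (nearest 6.83 CPM). Wild-type replicate 2 had the lowest log2 ratio of *Herc6* to *Isg15*, at -0.88 (nearest 0.14).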

How the results depend on the processing

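*Isg15* (log2 fold change from -2.83 to -2.33, adjusted p at most 0.0327), *Herc6* (-1.73 to -1.32, at most 0.0482) and *Pcbp1* (-3.60 to -3.34) kept their calls in all alternatives. The number of pathway genes called lower was 2 with limma on log2(CPM + 1), with limma on log2(CPM + 0.1) and with the replicate block, 5 with limma-voom, and 2 to 4 when single tumors were left out. *Uba7* missed the threshold with limma on log2(CPM + 1) (-0.70, adjusted p = 0.0530), limma on log2(CPM + 0.1) (-0.72, 0.0542) and the block (-0.76, 0.0771). *Usp18* missed it in the same fits (-1.26, 0.0671; -1.47, 0.0737; block -1.64, 0.0646). The block also ended the calls of *Stat2* (-1.37, adjusted p = 0.0564), *Ddx58* (-0.97, 0.0552), *Ifih1* (-0.82, 0.0575), *Lancl2* (0.53, 0.0889), *Usp1* (0.45, 0.109) and *Usp54* (-0.29, 0.163). *Ube2l6* passed with limma-voom (-0.84, 0.0393). Leaving out single tumors gave log2 fold changes of -0.90 to -0.63 for *Uba7* (adjusted p 0.00375 to 0.0918), -1.86 to -1.41 for *Usp18* (0.00176 to 0.0810) and -0.74 to -0.36 for *Ube2l6* (0.0924 to 0.443). Over all genes, calls lower and higher numbered 730 and 486 with DESeq2, 1190 and 968 with limma-voom, 118 and 42 with the block, and 144 to 389 and 41 to 187 without single tumors. The wider list had 1 higher gene with DESeq2, library size only, limma-voom and both limma fits on log2 CPM, and 0 to 1 without single tumors; its lower genes numbered 6 to 11. With tumors paired by replicate number in a block, the differences in log2 ratio to *Isg15* were 1.93 for *Uba7*, 2.13 for *Ube2l6*, 1.20 for *Herc6* and 1.11 for *Usp18*, each with an exact p = 0.0625, the smallest that 5 pairs allow. The numbers do not appear to pair tumors: correlations of same-numbered tumors were 0.15, 0.074, -0.097, -0.16 and 0.31. With *Isg15* per kilobase of merged exons it led in 5 of 6 knockout tumors in place of 0, and without wild-type replicate 5 the members whose groups did not overlap numbered 4 in place of 1. The cause of these shifts was not tested. Counts were lowest for *Usp18* and *Isg15*, at as few as 24 and 30 in a tumor.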
